A study of Mus musculus with 19 samples.

Results

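Chemokines are small secreted proteins that guide leukocytes, and they act through G protein-coupled receptors on the migrating cell. Ligands of the CXC class that carry a glutamate-leucine-arginine (ELR) motif attract neutrophils through Cxcr1 and Cxcr2, while the inflammatory CC ligands attract monocytes, eosinophils and T cells through receptors such as Ccr1 and Ccr3. Homeostatic chemokines such as Cxcl12, Cxcl13, Ccl19 and Ccl21 place lymphocytes and progenitors within tissues, and the atypical receptors bind chemokines without G protein signalling. In sensory ganglia, chemokines are known both for recruiting leukocytes and for acting on neurons.

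The genes described here are the mouse chemokines and chemokine receptors other than Ccr2 and the monocyte-attracting ligands Ccl2, Ccl7, Ccl8 and Ccl12. They were chosen by name, as every named entry of the deposited count table that begins with Ccl, Cxcl, Ccr, Cxcr, Xcl, Xcr or Ackr and a number and has any count. Of 61 such names, Ccl20 had 0 counts in every library, 5 were the monocyte genes and 2 were pseudogenes, which left 53 genes of 33441 named genes with counts. They comprise 32 ligands and 21 receptors. Of these, 48 had enough counts to be tested, and Ccr1l1, Cxcl15, Ccl26, Ccr8 and Cxcl17, none above 20 counts in a library, did not.

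The libraries were poly(A) RNA of dorsal root ganglia, the clusters of sensory neuron cell bodies beside the spinal cord, from lumbar levels L3 to L5 and pooled per mouse. All 19 mice were male homozygotes of the macrophage Fas-Induced apoptosis (MaFIA) strain, controls included, in which the Csf1r promoter drives a Fas-based death receptor that the dimerizer AP20187 activates in cells of the myeloid lineage. Osteoarthritis followed surgery on 1 knee, destabilization of the medial meniscus (DMM), done 8 weeks earlier, or the mice were naive and of matched age (the age itself is not given in the labels). AP20187 or vehicle was injected intraperitoneally once a day for 5 days. The groups were DMM with AP20187 (mice 58 to 62, n = 5), DMM with vehicle (mice 32, 33, 34, 63 and 64, n = 5), naive with AP20187 (mice 1, 3, 4 and 5, n = 4) and naive with vehicle (mice 1 to 5, n = 5). Each mouse is 1 library, so p-values measure the spread between mice.

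Library totals ran from 60984830 to 74691396 counts, and the limit that a count of 0 allows (3 counts, counting error only) lay near 0.0466 CPM (counts scaled to the library total after TMM adjustment) with DMM and AP20187. Csf1r, whose promoter drives the transgene, was 30.9 to 105 CPM with AP20187 and 32.9 to 148 CPM with vehicle in DMM mice, and its log2 fold change was -0.02 (SE 0.46, edgeR adjusted p = 0.981). In naive mice its log2 fold change was 0.45 (SE 0.49, adjusted p = 0.548). Of 10 macrophage markers, 1 rose with AP20187 in DMM mice (11.8% of all genes rose) and 3 in naive mice (8.85% of all genes), and none fell. Sensory neuron markers were present in every library, with a summed level of 553 to 5928 CPM. Of the 6 markers, 4 fell with AP20187 in DMM mice (12.9% of all genes fell). The library of DMM vehicle mouse 64 stood apart within its group, with a mature neutrophil marker sum of 7517 CPM against 385 to 2607 CPM in the other 4. It was also highest for erythroid markers (11787 against 697 to 5158 CPM) and early B lineage markers (35.8 against 2.33 to 15.6 CPM). Its sensory neuron sum was the lowest of the group (1975 against 4156 to 5592 CPM). In bulk tissue, fewer cells of a type and less RNA per cell cannot be told apart.

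On a scale per transcript length (the deposited FPKM), Cxcr2, the main neutrophil chemokine receptor, had the highest mean level of the 53 genes over all libraries, 41.3 FPKM. Ccl11 (eotaxin, an eosinophil attractant) followed at 30.4, Ccr1 at 26.9, Ccl6 and Ackr1 at 24.8 each, and Cxcr4, the receptor of Cxcl12, at 20.6 FPKM. The SDs within groups exceeded the gaps between Ccl6, Ackr1 and Cxcr4. In naive mice given vehicle the highest level was that of Ackr1, an atypical receptor of venules and red cell precursors, at 26.9 ± 11.5 FPKM (SD, n = 5), ahead of Ccl6 at 16.2 ± 5.17, Ccl11 at 15.9 ± 11, Cxcr4 at 13.4 ± 5.60 and Cxcr2 at 7.40 ± 3.05 FPKM. Neighbours in that order overlapped within 1 SD. Cxcl13 ranked 28th by FPKM in naive vehicle ganglia and 32nd in DMM vehicle ganglia, but 4th with AP20187 in DMM mice and 6th in naive mice.

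**Figure D1:**
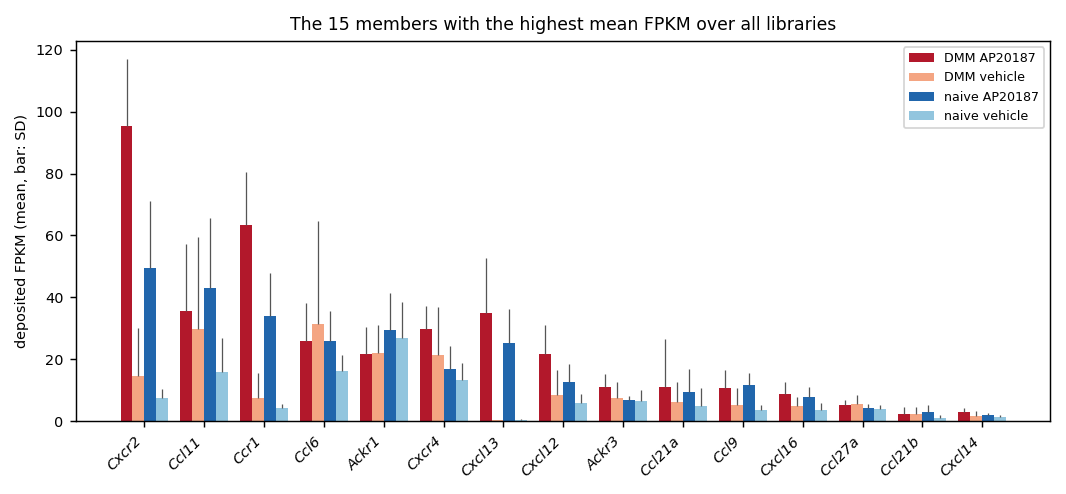
Deposited FPKM (y axis) of the 15 chemokine and receptor genes with the highest mean over all 19 libraries, as group means with SD upward, 4 or 5 mice a group. Cxcr2, Ccr1 and Cxcl13 were far higher with AP20187 in both DMM and naive mice, while the bars of Ackr1 were of similar height in all groups.

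AP20187 was compared with vehicle within DMM mice and within naive mice. The largest rise among genes with counts in both groups was that of Cxcl13, a B cell attractant, which went from under 1.1 CPM in all 10 vehicle libraries to 10.1 CPM or more in all 9 AP20187 libraries. Cxcr2 and Ccr1, receptors of neutrophils and other myeloid cells, and the neutrophil attractants Cxcl1 and Cxcl2 also rose in both. In DMM mice 8 of the 48 tested genes rose and 2 fell, together 20.8%, beside 24.7% of all 21840 genes tested (11.8% higher, 12.9% lower). In naive mice 10 rose and none fell, 20.8% beside 11.5% of all genes (8.85% higher, 2.62% lower; of all calls 77.1% were higher with TMM scaling, 62.8% without it, 63.8% by DESeq2, and 40.4% and 40.3% on log2(FPKM + 0.1) and log2(FPKM + 1)). By edgeR, 6 genes were called in both, all upward, which is 60.0% of each list. The matching share over all genes is not given here, so this overlap is not read as particular to these genes.

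The median log2 fold change of the tested genes was 0.41 in DMM mice, against -0.10 over all genes, and 0.79 in naive mice, against -0.07. With genes at 0 in a group set to the bound that 3 counts give, the medians were 0.34 and 0.79. Ranges of the libraries did not overlap for 6 genes above and 2 below in DMM mice (8.87% and 4.28% of all genes) and for 11 above and 0 below in naive mice (9.52% and 6.20% of all genes). Skeletal muscle markers moved with AP20187 in naive mice: the 4 markers summed to 1393 to 2118 CPM against 9.98 to 385 CPM with vehicle, and 1 of the 4 was called higher. In DMM mice they summed to 13.2 to 115 CPM against 11.5 to 1602 CPM, with 0 of 4 called by edgeR. Of 4 spinal cord markers, 2 fell in naive mice (sums of 21.7 to 42.0 against 42.8 to 50.1 CPM) and 0 were called in DMM mice. None of these 8 markers was at 0 in a whole group, and their part in the chemokine values was not tested.

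**Figure D2:**
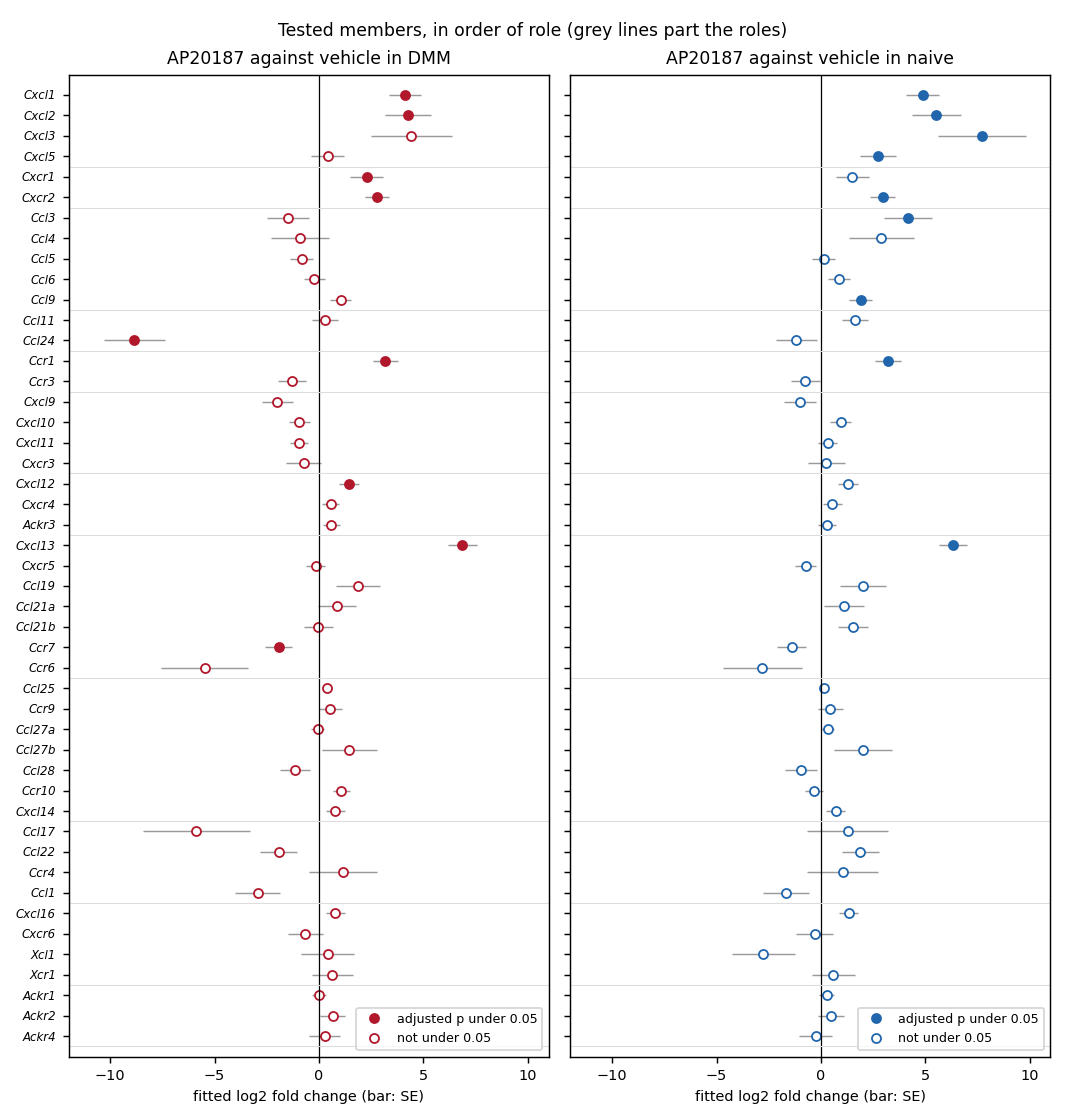
Fitted log2 fold change (x axis) with its SE of 47 of the 48 tested genes, AP20187 against vehicle, in DMM mice (left) and naive mice (right), filled where the adjusted p was under 0.05. Cxcl13, Cxcl1, Cxcl2, Cxcr2 and Ccr1 are filled to the right of 0 in both panels, and Ccl24 and Ccr7 are filled to the left in DMM mice; values against a group at 0 counts (Ccl24, Ccl17 and Ccr6 in DMM mice, Cxcl3 in both) depend on the prior count.

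Among the ELR ligands that draw neutrophils, Cxcl1 and Cxcl2 rose in both settings. Cxcl1 was 6.30, 2.94, 9.99, 4.34 and 0.909 CPM in DMM mice 58 to 62 given AP20187, and 0.0931, 0.135, 0.289, 0.107 and 0.758 CPM in DMM vehicle mice 32, 33, 34, 63 and 64. In naive mice it was 2.42, 14.3, 3.57 and 4.67 CPM with AP20187 and 0.127, 0.125, 0.295, 0.438 and 0.0672 CPM with vehicle. All treated libraries lay above all vehicle libraries in both settings, with mouse 62 the closest to its controls. The log2 fold changes were 4.13 (SE 0.76, adjusted p = 0.00142) and 4.88 (SE 0.80, adjusted p = 0.0013). Against DMM vehicle mice 63 and 64 alone the adjusted p was 0.0695. Leaving out DMM vehicle mouse 64 gave 4.96, and leaving out naive AP20187 mouse 3 gave 4.09, both still called.

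Cxcl2, which shares receptors with Cxcl1, was 1.02, 0.517, 1.91, 0.873 and 0.858 CPM in DMM mice with AP20187. It was listed at 0 in 3 of the 5 DMM vehicle libraries and at 0.0621 and 0.198 CPM in mice 32 and 34. In naive mice it was 1.10, 1.07, 0.727 and 2.89 CPM with AP20187, and 0, 0.0780, 0.0671, 0 and 0 CPM with vehicle. The ranges did not overlap, and the log2 fold changes were 4.27 (SE 1.09, adjusted p = 0.0101) and 5.54 (SE 1.18, adjusted p = 0.00681). The value was 5.91 without DMM vehicle mouse 34 and 6.21 without naive vehicle mouse 2.

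Cxcl3 and Cxcl5, further ELR ligands, were called by edgeR in naive mice and not in DMM mice, and the difference between the settings did not pass for Cxcl5 (edgeR interaction term, -2.32, SE 1.14, adjusted p = 0.671) and could not be tested for Cxcl3, which was at 0 in the vehicle libraries of both settings. Cxcl3 was at 0 in all vehicle libraries and at 1.10, 0.0681, 0.220 and 0.228 CPM in naive mice with AP20187, which is at least 9.03-fold higher than the 3-count floor per library (adjusted p = 0.0401), or at least 3.84-fold without AP20187 mouse 1. In DMM mice it had counts in 1 AP20187 library, mouse 58, at 0.198 CPM. Cxcl5 was 1.26, 2.62, 0.270 and 0.504 CPM with AP20187 and 0.0633, 0, 0.282, 0.292 and 0.228 CPM with vehicle in naive mice, with an overlap at mouse 4 (log2 fold change 2.73, SE 0.86, adjusted p = 0.0456). In DMM mice Cxcl5 was 0.206 to 0.753 CPM with AP20187 and 0.183 to 1.17 CPM with vehicle (log2 fold change 0.41, adjusted p = 0.748, and 1.18, adjusted p = 0.277, without mouse 64). Cxcl3 lost its call without any single naive library except AP20187 mouse 5 (adjusted p 0.0525 to 0.113), and Cxcl5 lost it without any of 12 libraries, naive AP20187 mice 1 and 3, naive vehicle mice 1, 2, 3 and 5, DMM AP20187 mice 58 to 61 and DMM vehicle mice 32 and 34 (0.0501 to 0.229). Without naive AP20187 mouse 3, Cxcl5 was at 1.94. With no filter neither passed (adjusted p = 0.0602 for Cxcl3 and 0.0691 for Cxcl5), and Cxcl5 also lost its call with vehicle mice 63 and 64 as the DMM controls, without TMM, on log2(FPKM + 1), with the 2 groups alone and with the replicate block (0.0532 to 0.164).

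Cxcl15, an ELR ligand known from lung epithelium, had too few counts for the edgeR filter and was named after its values were seen. It was 0.305, 0.295, 0.0925, 0.0602 and 0.172 CPM in DMM mice with AP20187, and 0 in all DMM vehicle and all naive AP20187 libraries. Among naive vehicle libraries it was 0.130 CPM in mouse 4 and 0 in the others. The DMM groups did not overlap, and the gene was called higher in DMM mice by DESeq2 (adjusted p = 0.0236) and by edgeR with no filter (adjusted p = 0.0351).

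The ELR genes that the naming rule covers lie in 1 cluster on chromosome 5 (GRCm39), all on the plus strand. They are Cxcl5 at chr5:90907219-90909483, Cxcl3 at chr5:90933962-90937459, Cxcl15 at chr5:90942393-90950926, Cxcl1 at chr5:91039100-91040974 and Cxcl2 at chr5:91051730-91053797. Of the 4 genes listed here that edgeR tested, 2 rose in DMM mice (11.8% of all genes rose) and 4 in naive mice (8.85% of all genes). Ppbp, a chemokine outside that rule, was not called by edgeR in DMM or naive mice (adjusted p = 0.156 and 0.197). Cxcl9, Cxcl10 and Cxcl11, ligands that interferon induces and that attract T cells through Cxcr3, lie further along the same chromosome on the minus strand, from 92469206 to 92513344. By edgeR none of these 3 was called in either setting, while Cxcl9 was called lower in DMM mice by DESeq2 (-1.97, adjusted p = 0.0195), by voom (adjusted p = 0.034) and in the fit of the 2 groups alone (adjusted p = 0.0279). Cxcl13 lies beyond them at chr5:96104810-96108927.

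The promoter stretches of 3 ELR ligands, of Cxcl13 and of Cxcl10 are shown because the first 4 of these genes rose with AP20187 in at least 1 setting and Cxcl10 did not. They are the 170 bases before the annotated start, from RefSeq (GRCm38.p6), read along the gene's strand 5′ to 3′, with matches to the motifs described beneath in capitals.
Cxcl1, chr5:90891075-90891244, plus strand: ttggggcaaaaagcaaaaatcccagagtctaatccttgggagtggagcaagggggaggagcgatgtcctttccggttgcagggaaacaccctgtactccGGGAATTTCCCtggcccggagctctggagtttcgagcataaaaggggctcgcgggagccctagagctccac
Cxcl2, chr5:90903729-90903898, plus strand: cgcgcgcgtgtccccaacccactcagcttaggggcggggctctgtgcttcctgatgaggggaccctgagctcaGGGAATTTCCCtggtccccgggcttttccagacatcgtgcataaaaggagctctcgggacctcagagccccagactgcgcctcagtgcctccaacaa
Cxcl3, chr5:90785931-90786100, plus strand: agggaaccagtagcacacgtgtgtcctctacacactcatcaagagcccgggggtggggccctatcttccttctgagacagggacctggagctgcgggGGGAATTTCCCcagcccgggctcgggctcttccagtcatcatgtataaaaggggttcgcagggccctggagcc
Cxcl13, chr5:95956769-95956938, plus strand: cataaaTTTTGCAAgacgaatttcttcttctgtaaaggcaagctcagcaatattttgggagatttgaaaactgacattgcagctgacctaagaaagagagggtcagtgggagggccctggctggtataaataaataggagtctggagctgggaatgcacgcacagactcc
Cxcl10, chr5:92348890-92349059, minus strand: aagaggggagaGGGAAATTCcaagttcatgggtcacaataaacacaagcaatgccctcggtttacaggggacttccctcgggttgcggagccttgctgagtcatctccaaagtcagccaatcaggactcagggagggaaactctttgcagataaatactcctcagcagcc

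Promoters of 40 of the 53 genes were found, and 4 motifs were searched on both strands in the 250 bases before the start. A chemokine gene counted as matched if any of its windows matched, while shares over all genes are per window. The longest run of letters common to Cxcl1, Cxcl2 and Cxcl3, which are related genes, was GGGAATTTCCC, 11 letters that begin 71, 97 and 73 bases before the start. It stood in 14 of the 32851 windows of all genes (0.0426%), and among the chemokine genes in these 3. The run was picked because these 3 share it, so its presence in them was fixed in advance. It holds the kappa B core GGGANNTTC on both strands, the matches overlapping. That core was in 8 of the 40 (Cxcl1, Cxcl2, Cxcl3, Cxcl9, Cxcl10, Cxcr2, Ccl1 and Ccr3) and in 3.23% of all windows. Cxcl10 held it at 159 bases and an interferon-response core, GAAANNGAA (7 of 40, 7.13% of all windows), at 213 bases, outside the stretch shown. The Cxcl13 window held no kappa B core and a match to the C/EBP motif TTGCNNAA (5 of 40, 9.56% of all windows) at 164 bases. The PU.1 motif GAGGAAGT was found in Cxcr3 alone (2.44% of all windows). The kappa B core stood both at genes that rose (Cxcl1, Cxcl2, Cxcr2) and at Cxcl10 and Ccr3, which were called in neither setting by edgeR, DESeq2 or voom, and a match describes letters, not binding.

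Cxcr2 was the most abundant of the receptors that respond to these ligands. With AP20187 it was 351, 248, 275, 226 and 418 CPM in DMM mice and 244, 259, 136 and 80.7 CPM in naive mice. With vehicle it was 7.45, 12.6, 38.2, 41.6 and 119 CPM in DMM mice 32, 33, 34, 63 and 64, and 18, 14.9, 32.2, 34.0 and 16.4 CPM in naive mice. Treated and vehicle libraries did not overlap within either setting, although DMM vehicle mouse 64 exceeded naive AP20187 mouse 5. The log2 fold changes were 2.79 (SE 0.57, adjusted p = 0.00284) and 2.96 (SE 0.59, adjusted p = 0.00414). Without DMM vehicle mouse 64 the first was 3.60.

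Cxcr1, the other receptor for ELR ligands, was low. It was 1.72, 0.827, 0.524, 0.873 and 0.600 CPM with AP20187 and 0, 0.120, 0.152, 0.183 and 0.476 CPM with vehicle in DMM mice (log2 fold change 2.28, SE 0.78, adjusted p = 0.0399). The naive libraries gave 0.0650 to 0.907 CPM with AP20187 and 0.107 to 0.295 CPM with vehicle, and mouse 5 lay below all its controls (adjusted p = 0.214). The DMM call was lost without any of DMM AP20187 mice 58, 59 and 62 or DMM vehicle mice 32, 33, 34 and 63 (adjusted p 0.0501 to 0.113). It was also lost against vehicle mice 63 and 64 alone (1.46, adjusted p = 0.351), with no filter (0.06) and with the 2 groups alone (0.0622). Without DMM vehicle mouse 64 the value was 2.98 (adjusted p = 0.0107).

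Neutrophil markers moved with these receptors. The summed level of 8 mature neutrophil markers (S100a8, S100a9, Ngp, Ltf, Camp, Retnlg, Mmp8 and Csf3r) was 14458 to 24481 CPM with AP20187 and 385 to 7517 CPM with vehicle in DMM mice, and 6804 to 24378 against 812 to 2206 CPM in naive mice. Of the 8, 4 rose in DMM mice (11.8% of all genes rose) and 5 in naive mice (8.85% of all genes). All 4 granulocyte precursor markers (Mpo, Elane, Prtn3, Ctsg) rose in both. None of the 12 was at 0 in a whole group. Cxcr2 was 10.5 to 22.2 CPM per 1000 CPM of the mature neutrophil sum over the 19 libraries. By group the ratio was 14.4 to 17.1 CPM with AP20187 and 15.8 to 19.8 CPM with vehicle in DMM mice, and in naive mice it was lower in all AP20187 libraries (10.5 to 12.3 CPM) than in all vehicle libraries (15.4 to 22.2 CPM). For Ccr1 the ratio was 8.27 to 10.5 against 7.27 to 8.84 CPM in DMM mice and 6.34 to 9.19 against 8.02 to 14.8 CPM in naive mice, overlapping in both. The part of neutrophil content in the receptor and ligand values was not tested.

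For Cxcl13 the same ratio was 0.0692 to 1.37 CPM per 1000 CPM of the neutrophil sum with vehicle in DMM mice and 0.701 to 3.33 CPM with AP20187, and 0.0731 to 0.741 against 1.06 to 4.69 CPM in naive mice. Per 1000 CPM of the sum, Cxcl1 overlapped in both settings, at 0.0371 to 0.572 CPM with AP20187 against 0.0409 to 0.242 CPM in DMM mice and 0.104 to 0.686 against 0.0778 to 0.199 CPM in naive mice.

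**Figure D3:**
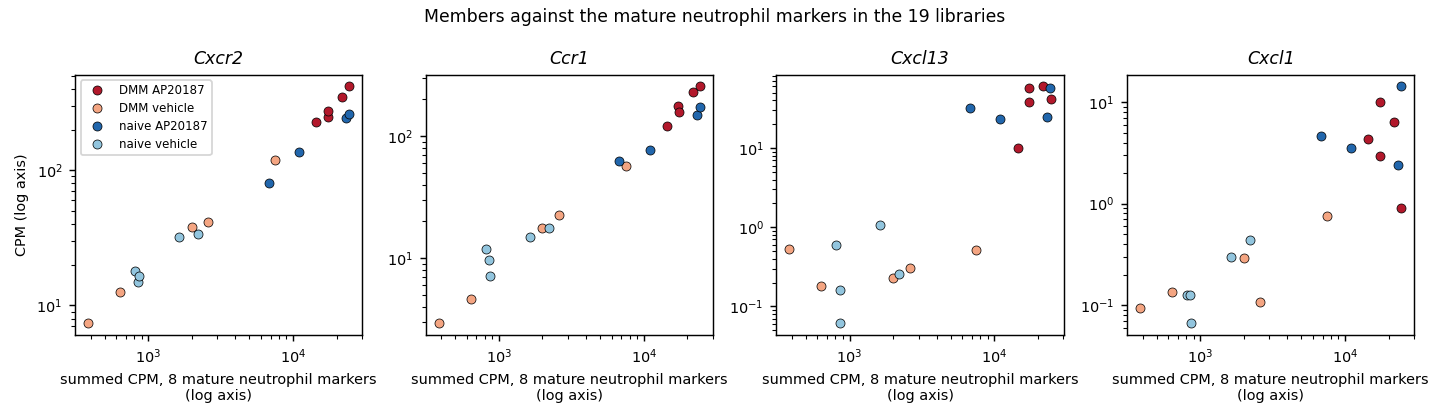
CPM of 4 genes (y axis, log) against the summed CPM of 8 mature neutrophil markers (x axis, log) in the 19 libraries, coloured by group. The libraries with the higher sums had more Cxcr2 and Ccr1, and the Cxcl13 points of AP20187 libraries all lie above those of vehicle libraries. For Cxcl1, DMM AP20187 mouse 62 (0.909 CPM) lies near DMM vehicle mouse 64 (0.758 CPM).

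Ccr1 is a receptor of inflammatory CC ligands, found on neutrophils, monocytes and macrophages. It was 229, 174, 158, 120 and 254 CPM with AP20187 and 2.98, 4.64, 17.6, 22.4 and 56.3 CPM with vehicle in DMM mice. Naive levels were 147, 171, 77.1 and 62.5 CPM with AP20187 and 12.0, 9.68, 14.9, 17.7 and 7.19 CPM with vehicle. No libraries overlapped, and the log2 fold changes were 3.17 (SE 0.60, adjusted p = 0.0017) and 3.22 (SE 0.61, adjusted p = 0.00333). Without DMM vehicle mouse 64 the first was 3.97.

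Among the inflammatory CC ligands, Ccl3 (MIP-1 alpha) and Ccl9 rose in naive mice and edgeR called no gene of this role in DMM mice, where Ccl9 was called by voom (adjusted p = 0.000279) and DESeq2 called none. Ccl3 was 0.924, 1.23, 0.71 and 3.85 CPM with AP20187 and 0.111, 0.109, 0.228, 0 and 0 CPM with vehicle in naive mice (log2 fold change 4.19, SE 1.14, adjusted p = 0.0251). In DMM mice it was 0.244, 0.207, 0, 0.120 and 0.480 CPM with AP20187 and 0.233, 0.105, 0.259, 0.670 and 1.68 CPM with vehicle (-1.48, SE 1.01, adjusted p = 0.302, and -0.59, adjusted p = 0.70, without mouse 64). The naive groups did not overlap, while the DMM libraries did. The difference between these responses, -5.67 on the log2 scale (SE 1.52), had an adjusted p of 0.202 by edgeR and 0.0111 by DESeq2. Without mouse 64 it was -4.78 (SE 1.47, edgeR adjusted p = 0.347).

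Ccl9 was 34.4, 64.8, 33.4 and 37.3 CPM with AP20187 and 10.2, 7.77, 16.7, 16.0 and 6.03 CPM with vehicle in naive mice, with no overlap (log2 fold change 1.91, SE 0.54, adjusted p = 0.030). In DMM mice it was 17.0 to 56.5 CPM with AP20187 and 4.56 to 40.6 CPM with vehicle, where mouse 64 held the highest vehicle value (1.04, SE 0.51, adjusted p = 0.14). Without mouse 64 the DMM value was 1.72 and the adjusted p was 0.00963. The naive call of Ccl3 was lost without AP20187 mouse 5 or vehicle mouse 1, 2 or 5 (0.0558 to 0.0585) or with the replicate block (0.0678), and that of Ccl9 without AP20187 mouse 1 or 3 or vehicle mouse 1, 2 or 5 (0.0571 to 0.112). Ccl3 was at 3.40 without AP20187 mouse 5 and at 4.90 without vehicle mouse 3.

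Ccl6, the most abundant ligand of this role per length, was 82.0, 42.7, 43.5, 32.3 and 37.4 CPM with AP20187 and 14.0, 16.1, 40.4, 56.5 and 151 CPM with vehicle in DMM mice (log2 fold change -0.22, SE 0.49, adjusted p = 0.784). Without mouse 64 the direction turned, at 0.58 (SE 0.40, adjusted p = 0.275). In naive mice the levels were 35.5 to 88.3 CPM and 20.0 to 40.9 CPM (0.88, SE 0.52, adjusted p = 0.264), and the replicate block called Ccl6 there (0.81, adjusted p = 0.0317). Ccl5, a T cell product, and Ccl4 were at or under 3.81 CPM in every library. Ccl4 did not overlap in naive mice, at 0.239 to 0.699 CPM with AP20187 and 0 to 0.174 CPM with vehicle (log2 fold change 2.90, SE 1.54, adjusted p = 0.217 by edgeR and 0.0444 by voom). The 10 macrophage markers summed to 250 to 1051 CPM with AP20187 against 172 to 654 CPM in DMM mice, and to 482 to 814 against 92.6 to 510 CPM in naive mice, and none was at 0 in a whole group. The part of macrophage content in the CC ligand values was not tested.

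Of the eosinophil attractants, Ccl24 fell in DMM mice, and edgeR did not call Ccl11. Ccl24 (an eotaxin) had no count in any of the 5 DMM libraries with AP20187, and 0.543, 0.225, 0.411, 0.670 and 2.60 CPM with vehicle. That is at least 19.1-fold lower than vehicle against the 3-count floor per library (adjusted p = 0.00119), and the groups did not overlap. Without mouse 64 the bound was 9.92-fold. In naive mice Ccl24 was 0.506, 0.136, 0.186 and 0 CPM with AP20187 and 0.364, 0.406, 1.03, 0.373 and 0.161 CPM with vehicle, which overlapped (log2 fold change -1.17, SE 0.98, adjusted p = 0.432). The difference between the settings had an adjusted p of 0.142 by edgeR and 0.00223 by DESeq2.

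Ccl11, which shares the receptor Ccr3 with Ccl24, was 64.2, 47.4, 51.9, 16.7 and 13.9 CPM with AP20187 and 17.5, 7.77, 10.4, 42.7 and 80.6 CPM with vehicle in DMM mice (log2 fold change 0.29, SE 0.60, adjusted p = 0.772). Without mouse 64 the value was 0.99 (SE 0.57, adjusted p = 0.199), and against vehicle mice 32 to 34 alone Ccl11 was called (1.71, adjusted p = 0.0311). The naive values were 37.0, 100, 47.8 and 34.1 CPM with AP20187 and 16.1, 9.35, 37.5, 16.6 and 8.32 CPM with vehicle (1.64, SE 0.64, adjusted p = 0.10). In naive mice DESeq2 called Ccl11 (1.66, adjusted p = 0.0429), as did voom (adjusted p = 0.0203), the fit of the 2 groups alone (0.0382) and the replicate block (0.00879), and in DMM mice voom called it (0.0107). Ccr3 was 0.130 to 3.76 CPM in all libraries, with log2 fold changes of -1.28 (adjusted p = 0.165) and -0.74 (adjusted p = 0.49). Of the 4 eosinophil and basophil markers measured, 1 rose in DMM mice (11.8% of all genes rose) and 4 of 4 in naive mice (8.85% of all genes). The sums were 105 to 352 against 23.1 to 217 CPM and 116 to 302 against 26.6 to 64.9 CPM. None of the 4 was at 0 in a whole group. Fibroblast markers summed to 1431 to 5630 CPM with AP20187 against 951 to 5885 CPM with vehicle in DMM mice. In naive mice they summed to 2550 to 5210 against 686 to 3653 CPM. The part of either cell content in the Ccl11 values was not tested.

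Cxcl13 had the smallest adjusted p of these genes in both settings. It was 59.9, 57.7, 38.3, 10.1 and 41.1 CPM with AP20187 and 0.528, 0.180, 0.228, 0.304 and 0.520 CPM with vehicle in DMM mice. In naive mice it was 24.7, 57.3, 23.4 and 31.9 CPM with AP20187 and 0.602, 0.0624, 1.06, 0.260 and 0.161 CPM with vehicle. The lowest treated library, DMM mouse 61, was well above the highest vehicle library, naive mouse 3. The log2 fold changes were 6.87 (SE 0.68, adjusted p = 1.24e-05) and 6.31 (SE 0.67, adjusted p = 3.49e-05), and the difference between them was 0.56 (SE 0.81, adjusted p = 0.938). Without naive vehicle mouse 3 the second was 6.98.

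Cxcr5, the B cell receptor for Cxcl13, was not called by edgeR, DESeq2 or voom. It was 2.62, 1.91, 1.23, 0.813 and 3.16 CPM with AP20187 and 1.18, 1.05, 1.89, 2.04 and 4.68 CPM with vehicle in DMM mice (log2 fold change -0.16, SE 0.46, adjusted p = 0.844). In naive mice it was 1.36, 1.38, 1.08 and 0.634 CPM against 1.17, 1.42, 2.04, 3.63 and 0.967 CPM (-0.73, SE 0.50, adjusted p = 0.336). The B cell markers Cd79a, Cd79b and Ms4a1 all fell in both settings (12.9% and 2.62% of all genes fell). Their sums went to 2.27 to 6.34 CPM from 5.97 to 93.2 CPM in DMM mice. In naive mice the sums went to 2.55 to 4.96 CPM from 14.0 to 36.7 CPM. None of the 3 was at 0 in a whole group.

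Ccr7, which leads dendritic cells and lymphocytes to lymph nodes, was 0.793, 0.532, 0.185, 0.301 and 0.618 CPM with AP20187 and 0.434, 0.735, 1.46, 1.90 and 4.65 CPM with vehicle in DMM mice. The groups overlapped, and it fell by 1.92 on the log2 scale (SE 0.65, adjusted p = 0.0379). The naive libraries gave 0.418, 1.33, 0.406 and 0.195 CPM against 1.52, 0.936, 2.08, 2.60 and 0.551 CPM, also with overlap (-1.39, SE 0.69, adjusted p = 0.187). The DMM call was lost without any of DMM AP20187 mice 59 to 62 or DMM vehicle mice 34, 63 and 64 (0.0529 to 0.127), with a value of -1.22 without mouse 64, and against vehicle mice 32 to 34 alone the value was -0.85 (adjusted p = 0.325). It was also lost by voom (adjusted p = 0.0536), with the 2 groups alone (0.0624), with no filter (0.0558) and on log2(FPKM + 0.1) and log2(FPKM + 1) (0.0631 and 0.0719), 13 of 30 alternatives in all. Dendritic cell markers, Xcr1 among them, summed to 21.5 to 28.8 against 34.8 to 46.3 CPM in DMM mice, with 1 of 5 called lower (12.9% of all genes). In naive mice the sums were 26.1 to 37.5 against 39.9 to 47.5 CPM, with 0 of 5 called. Their part in the Ccr7 values was not tested.

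Its ligands were not called by edgeR, DESeq2 or voom. Ccl19 was 0 to 2.96 CPM with AP20187 and 0 to 0.590 CPM with vehicle over both settings, with log2 fold changes of 1.87 (adjusted p = 0.201) and 2.01 (adjusted p = 0.226). Ccl21a was 1.22 to 32.3 CPM with AP20187 and 0.739 to 13.8 CPM with vehicle. Ccl19, Ccl21a and Ccl21b have near-identical copies in the genome between which the counting could split reads, so their values are uncertain, as are those of Ccl27a and Ccl27b. Ccr6, a receptor of B cells and some T cells, had no count in any DMM library with AP20187 and at most 0.268 CPM elsewhere.

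Cxcl12, which retains progenitors and neutrophils in the marrow through Cxcr4, was 289, 138, 168, 102 and 224 CPM with AP20187 and 25.1, 34.3, 45.1, 60.8 and 178 CPM with vehicle in DMM mice. Mouse 64 held the highest vehicle value and was the 1 library in which the groups overlapped (log2 fold change 1.42, SE 0.48, adjusted p = 0.0374). Naive levels were 91.3, 212, 87.1 and 100 CPM against 53.9, 34.2, 50.8, 86.6 and 23.6 CPM, with no overlap and a similar log2 fold change of 1.30 that did not pass by edgeR (SE 0.50, adjusted p = 0.095) but did by DESeq2 (1.31, adjusted p = 0.0486) and voom (adjusted p = 0.0226). Against vehicle mice 63 and 64 alone the DMM value was 0.63 (adjusted p = 0.56), and the call was also lost without any of AP20187 mice 58, 60 and 62 or vehicle mice 32, 33, 34 and 63 (0.0569 to 0.102), with no filter (0.0544) and with the 2 groups alone (0.0631). Without mouse 64 it was 2.16 (adjusted p = 0.00102).

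Cxcr4 was 65.9, 46.4, 47.5, 42.2 and 80.8 CPM with AP20187 and 14.3, 15.4, 38.6, 44.4 and 79.3 CPM with vehicle in DMM mice (log2 fold change 0.56, SE 0.42, adjusted p = 0.36). In the naive setting the levels were 44.5, 57.2, 23.1 and 20.3 CPM against 22.4, 17.7, 33.2, 37.4 and 13.7 CPM (0.54, SE 0.45, adjusted p = 0.416). Ackr3, which scavenges Cxcl12, was 8.07 to 53.0 CPM over all libraries, with log2 fold changes of 0.59 and 0.31 (adjusted p = 0.305 and 0.641). In DMM mice voom called both Cxcr4 (0.99, adjusted p = 0.0209) and Ackr3 (1.2, adjusted p = 0.0048), DESeq2 called neither, and edgeR called both against vehicle mice 32 to 34 alone (adjusted p = 0.0244 and 0.0191) and Ackr3 without mouse 64 (adjusted p = 0.0326). Of 5 vascular endothelial markers 2 rose in each setting (11.8% and 8.85% of all genes rose), and 0 of 4 fibroblast markers were called. The endothelial sums were 148 to 283 against 61.9 to 143 CPM and 200 to 464 against 59.1 to 293 CPM. None of these endothelial and fibroblast markers was at 0 in a whole group, and their part in the Cxcl12 values was not tested.

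**Figure D4:**
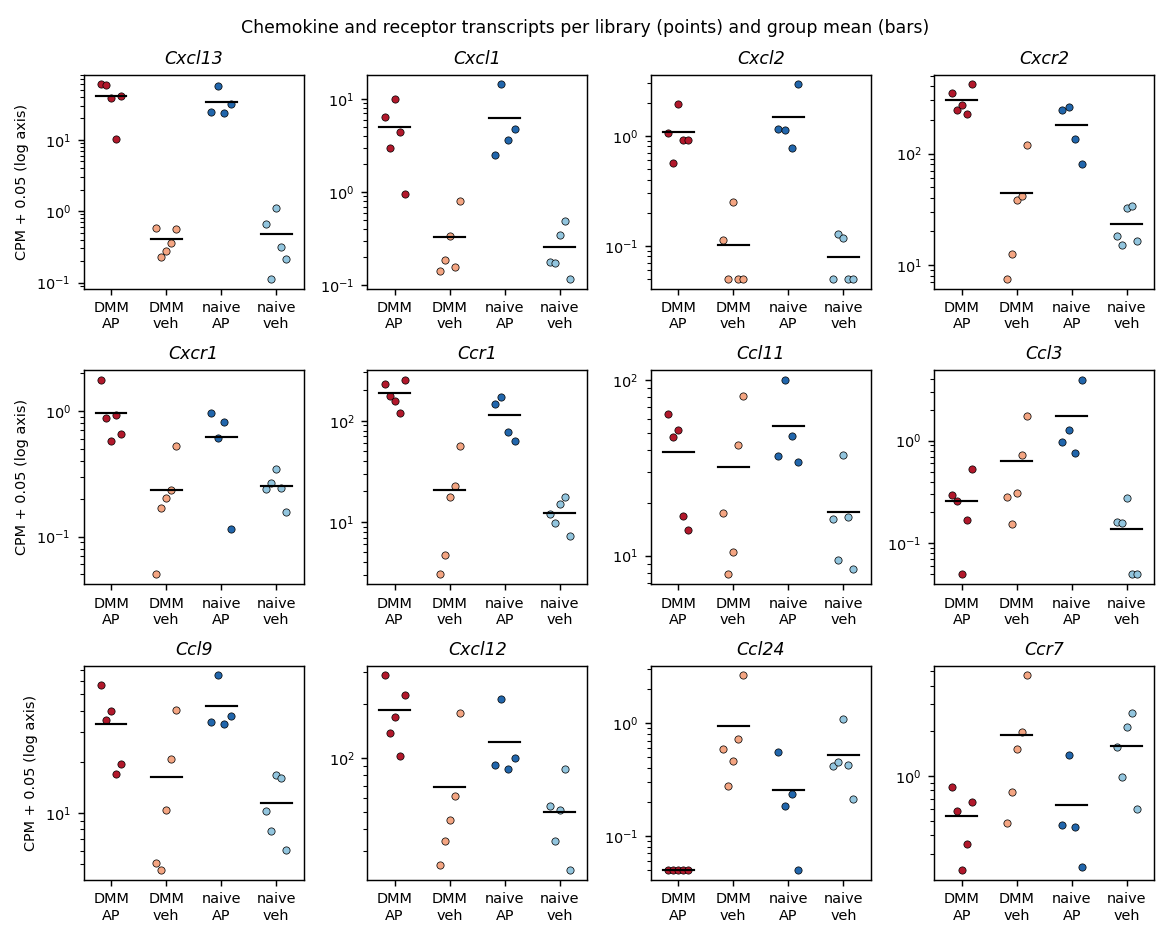
CPM plus 0.05 (y axis, log) of 12 genes in each library (points) with the group mean (bar), for DMM and naive mice given AP20187 (AP) or vehicle (veh). Treated points lie above all vehicle points of the same setting in both settings for Cxcl13, Cxcl1, Cxcl2, Cxcr2 and Ccr1, and the 5 DMM AP20187 points of Ccl24 sit at 0 counts.

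By edgeR the remaining tested genes were not called in either setting. Cxcl9, an interferon-induced ligand, was 0.708 to 2.67 CPM with AP20187 and 2.57 to 10.7 CPM with vehicle in DMM mice (log2 fold change -1.99, SE 0.74, adjusted p = 0.0567), and 0.980 to 9.19 against 0.843 to 12.8 CPM in naive mice (-0.99, adjusted p = 0.392). Cxcl10 had values of -0.94 in DMM mice and 0.95 in naive mice (adjusted p = 0.166 and 0.223), and all 3 interferon-induced ligands lay below 0 in DMM mice.

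Ackr1 was 23.1, 24.4, 27.1, 54.4 and 29.7 CPM with AP20187 and 29.6, 51.3, 37.8, 21.4 and 17.3 CPM with vehicle in DMM mice. The naive values were 34.8, 34.7, 51.7 and 68.7 CPM against 34.1, 46.8, 19.7, 30.5 and 64.1 CPM. The groups overlapped throughout, and the log2 fold changes were 0.01 (SE 0.34, adjusted p = 0.984) and 0.28 (SE 0.36, adjusted p = 0.611). Cxcl16, the ligand of Cxcr6, had log2 fold changes of 0.79 (adjusted p = 0.196) and 1.34 (adjusted p = 0.0676), both not called by edgeR. In DMM mice it was called by voom (1.27, adjusted p = 0.00551) and against vehicle mice 32 to 34 alone (1.37, adjusted p = 0.0381). In naive mice it was called by DESeq2 (1.36, adjusted p = 0.026), voom (adjusted p = 0.0103) and the replicate block (adjusted p = 0.0214). By edgeR none of the 7 tested genes of epithelial and gut homing passed in either setting, nor of the 4 tested genes around Ccl17, Ccl22, Ccr4 and Ccl1; Ccl1, a ligand of Ccr8, did not overlap in DMM mice (0 to 0.133 against 0.182 to 0.487 CPM, adjusted p = 0.0551). In DMM mice DESeq2 called Ccr10 higher (1.10, adjusted p = 0.02) and Ccl1 lower (-2.96, adjusted p = 0.00868). There voom called Cxcl14 and Ccl25 higher (adjusted p = 0.0095 and 0.0465) and Ccl22 and Ccl1 lower (0.0162 and 0.00502). Cxcl14 was also called there by edgeR without vehicle mouse 64 (1.47, adjusted p = 0.00681) and against vehicle mice 32 to 34 alone (1.66, adjusted p = 0.0061). Ackr2 and Ackr4, scavenger receptors, and Xcl1 and Xcr1, the lymphotactin pair, were at or under 3.22 CPM in every library. Over all groups 13 of the 53 genes reached a mean of 10 CPM in some group and 17 stayed under 1 CPM in every group.

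Surgery itself was compared within vehicle and within AP20187 mice. No chemokine or receptor gene was called between DMM and naive ganglia with vehicle (edgeR, 0 of 48 beside 0.0% of all genes). At an unadjusted p under 0.05 there was 1 of 48, Ccl3 (0.589 against 0.0896 CPM, log2 fold change 2.68, SE 1.06), beside 350 of 21840 genes, and DESeq2 called 0 of these genes and 1 gene in all. Cxcl13 differed by -0.29 (SE 0.59), Cxcr2 by 0.92 (SE 0.54) and Cxcl1 by 0.40 (SE 0.72) on the log2 scale, each with an adjusted p of 1.0 and overlapping libraries. Without DMM vehicle mouse 64 the values were 1.79 for Ccl3 (0.317 against 0.0896 CPM), 0.11 for Cxcr2 (25.0 against 23.1 CPM), -0.42 for Cxcl1 and -0.48 for Cxcl13.

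With AP20187, edgeR called Ccl24 lower in DMM than in naive ganglia (1 of 48, beside 0.792% of all genes called and 0.49% lower). Its 5 DMM libraries were at 0, at least 4.44-fold under the naive mean of 0.207 CPM (2.31-fold without naive mouse 1), and naive mouse 5 was at 0 too (adjusted p = 0.0477). That call was lost in 20 of 28 alternatives, among them leaving out any of 15 libraries, DMM AP20187 mice 58 to 62, DMM vehicle mice 34 and 63, naive AP20187 mice 1, 3 and 4 and all 5 naive vehicle mice (adjusted p 0.0515 to 0.103). Ccl3 was lower and Ccr10, a receptor of skin-homing T cells, was higher in all DMM libraries than in all naive ones. Neither was called by edgeR (adjusted p = 0.178 and 0.176), and the share of all genes so separated is not given here. At an unadjusted edgeR p under 0.05 there were 5 of 48, beside 3682 of 21840 genes. DESeq2 also called Ccl22 lower (-2.63, adjusted p = 0.0498), and voom called Ccl3 (adjusted p = 0.0284) and Cxcl3 (adjusted p = 0.00531) lower. In this comparison DESeq2 called 1117 genes in all and voom 1496 of 21840. For the interaction of surgery and drug, edgeR called 0 of 48 genes, beside 0.119% of all genes. Cxcl3, at 0 in both vehicle groups, could not have passed. At an unadjusted edgeR p under 0.05 there were 6, beside 1691 of all genes. DESeq2 called 2, Ccl24 and Ccl3, beside 228 genes in all.

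Genes that carry or modify the chemokine signal, and chemokines outside the naming rule, were followed as a list of 32, all tested. Of these 17 rose and 2 fell in DMM mice (24.7% of all genes called) and 14 rose and none fell in naive mice (11.5% of all genes). The median log2 fold changes were 0.90 and 0.77. Arrb2, which desensitizes chemokine receptors, rose by 1.86 (SE 0.33, adjusted p = 0.00111) in DMM mice and 1.90 (SE 0.34, adjusted p = 0.00247) in naive mice. Grk6, a receptor kinase, rose by 1.53 (adjusted p = 0.000127) and 0.94 (adjusted p = 0.00849), and the G protein subunit Gnai3 by 1.08 (adjusted p = 0.00038) and 0.62 (adjusted p = 0.0253).

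Rac2, the leukocyte GTPase of cell migration, rose by 2.52 (adjusted p = 0.00635) and 2.88 (adjusted p = 0.00681), and Rgs1, which limits G protein signalling, by 1.45 (adjusted p = 0.025) and 2.72 (adjusted p = 0.00208). Gng2 and Plcb3, both also expressed in neurons, fell by 1.11 and 1.09 in DMM mice (adjusted p = 0.00518 and 0.00841). The platelet chemokines Pf4 and Ppbp had values of 1.10 and 1.45 in DMM mice and 1.72 and 1.51 in naive mice, none of which passed (adjusted p 0.0508 to 0.197). Cx3cl1, the neuronal ligand fractalkine, differed by 0.13 and -0.13, and its macrophage receptor Cx3cr1 by -0.64 and 0.55 (adjusted p 0.386 to 0.684).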

How the data were processed

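Bulk poly(A) libraries of 19 mice in 4 groups (4 or 5 mice each) were used. One table deposited by the authors gives raw whole-number counts, and a second deposited table gives FPKM (fragments scaled to transcript length and library size). Per the submitters' processing notes, cutadapt, HISAT2, StringTie and GRCm39 were used, and versions are not given in the sources used here. Gene coordinates are those in the deposited table; promoter coordinates are on GRCm38.p6.

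Rows without a gene name (6448 of 56691, 0.414% to 1.72% of counts) were left out. Counts were filtered with edgeR's filterByExpr (21840 genes), scaled by TMM and fitted over all 4 groups with edgeR 4.0.16 (quasi-likelihood F test, R 4.3.3), with Benjamini-Hochberg adjustment over all genes tested and a threshold of 0.05. The fit was also run on simulated counts with independent libraries and changes in the DMM AP20187 group only. That run does not test the calls given here. The limit for a count of 0 was 3 counts. CPM are TMM-scaled. With DESeq2 1.42.0 and limma 3.58.1 (voom with sample weights; log2 of FPKM plus 0.1 or 1), these alternatives were run: library totals only, no filter, a stricter filter, 2 groups only, either number series of DMM vehicle mice, each library left out and a replicate block.

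The members and gene lists were chosen with earlier results of these data known. Values per library are given for up to 10 genes a comparison with adjusted p under 0.05 and a mean of at least 0.5 CPM, their ligand or receptor partners and the 6 highest by FPKM; other genes named, such as Cxcl3, Ccl4, Ccl1, Cxcl9 and Ccr10, were named after their values were seen. No duplicate library was found among 36 pairs within groups (lowest chi-square per gene 56.7). Results for 2 genes that enter the counts and lists are not reported here.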

Additional observations from a re-analysis of the deposited data

Results flagged for a closer look

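In 80 groups of 4 or 5 libraries (20 genes), 11 held a library far from the others. Chance would give about 1 in 20, or 5% of groups, if the groups were independent. The genes share the same libraries, so the count does not measure an excess over chance. DMM vehicle mouse 64 was the highest of its group for Ccl24 (2.60 CPM), Cxcl12 (178 CPM), Cxcl5 (1.17 CPM) and Cxcr5 (4.68 CPM). Naive AP20187 mouse 3 stood highest for Ccl9 (64.8 CPM) and Cxcl12 (212 CPM), and naive AP20187 mouse 5 for Ccl3 (3.85 CPM). Naive vehicle mouse 3 was highest for Ccl24 (1.03 CPM) and Ccl11 (37.5 CPM). DMM AP20187 mouse 58 was highest for Ccl6 (82.0 CPM) and mouse 61 for Ackr1 (54.4 CPM).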

How the results depend on the processing

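No called gene reversed its direction under any alternative run. Cxcl13, Cxcl2, Cxcr2 and Ccr1 in both settings, Ccl24 in DMM mice and Cxcl1 in naive mice kept their calls in every alternative that could be fitted. Of the 48 tested genes, 10 were called for AP20187 in DMM mice. With vehicle mice 32 to 34 alone there were 16, with mice 63 and 64 alone 6, and with voom sample weights 19, and leaving out 1 library gave 7 to 13. For AP20187 in naive mice, 10 were called, and leaving out 1 library gave 6 to 12 (6 without vehicle mouse 1, 2 or 5). For DMM against naive with AP20187, 1 was called. The count was 2 by DESeq2, by log2(FPKM + 1) and by voom, and 0 to 1 with 1 library left out. It was 0 with vehicle mice 63 and 64 alone, by log2(FPKM + 0.1), with no filter, with the stricter filter and with 2 groups only. Over all genes this comparison called 173, against 1117 by DESeq2, 1148 on log2(FPKM + 1), 908 on log2(FPKM + 0.1) and 1496 by voom. For the interaction, 0 were called, with 2 by DESeq2 (Ccl24 and Ccl3) and 0 to 1 with 1 library left out (1 without naive AP20187 mouse 5). Over all genes the interaction called 26, against 228 by DESeq2 and 56 without naive AP20187 mouse 5. DMM against naive with vehicle gave 0 in each alternative. Over all genes, calls for AP20187 in naive mice were 2505, against 4229 by DESeq2, 4559 by voom, 4063 and 3958 on FPKM (median shift -0.21 with 0.1 added) and 964 to 3403 with 1 library left out; those in DMM mice were 5386, against 10141 by voom, 8373 with vehicle mice 32 to 34 and 1172 with mice 63 and 64 alone, and 3212 to 7623 with 1 library left out. Rows without a gene name were kept in an alternative chosen after seeing the data, with 10 and 10 called. The cause of these shifts was not tested.

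Only the naive mice share replicate numbers. A replicate block on numbers 1, 3, 4 and 5 called 10 genes in naive mice, 7 of them among the 10 without it; Ccl3 (4.64, adjusted p = 0.0678) and Cxcl5 (2.13, adjusted p = 0.164) did not pass with the block. The deviations of mice with the same number correlated at 0.11, 0.66, -0.17 and 0.52, and 2 of 4 correlated best with their own number, so the numbers were not taken as pairs.

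Genes under 1 CPM rest on few counts, and differences at the 3-count floor were not detectable at this depth.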
